A study of Homo sapiens with 6 samples.

Results

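ZCCHC12 and 8 relatives of it were followed in HEK293T cells given an adenine base editor or a GFP plasmid. The relatives were ZCCHC18, PNMA1, PNMA2, PNMA3, PNMA5, PNMA8A, PNMA8B and MOAP1. These 9 genes were taken by symbol from a table of 62700 genes, and 7 of them passed the filter on low counts, as did 20511 genes in all. ZCCHC12 was chosen by its measured RNA level, which was higher in the editor libraries, so its difference between the groups is described and not tested. The others were chosen as members of the same gene family, and their differences were tested.

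HEK293T is a human embryonic kidney line, labelled as epithelial. The 3 editor libraries came from cells transfected by Lipofectamine 2000 with a plasmid for SpRY-ABE8e and guide RNAs, called SA and SD in the labels, at exon 17 of APP. In SpRY-ABE8e, a deaminase that rewrites adenine so that it is read as guanine is carried by SpRY, a form of Cas9 that accepts nearly any PAM. The 3 GFP libraries came from cells given a GFP plasmid with the same reagent, so all 6 libraries come from transfected cells and the GFP cells had neither editor nor guides. The libraries held 110519197 to 152625595 reads counted on genes in the editor group and 124681733 to 128988337 in the GFP group. Editor libraries 2 and 3 were far closer to each other than any other pair within a group, at a chi-square divided by its degrees of freedom of 3.41, where the other such pairs had 35.5 to 197.8. For editor library 1 the distance was 118.1 and 125.4 to editor libraries 2 and 3, and only 80.97 and 44.3 to GFP libraries 2 and 3. Mitochondrial transcripts took 4.62% to 6.39% of the reads in the editor libraries and 3.42% to 4.49% in the GFP libraries. The part of these library differences in the results below was not tested.

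PNMA genes descend from the gag gene of an ancient LTR retrotransposon, which encoded the shell protein of the element. The family is named for patients with paraneoplastic neurological disease, whose antibodies bind some of its proteins, PNMA1 and PNMA2 foremost. Gag proteins can assemble into shells, and some domesticated gag proteins, PNMA2 and ARC among them, still form capsids. Several members are found mostly in brain. ZCCHC12, which RefSeq also lists as PNMA7A and SIZN1, is a nuclear co-activator that works with SMAD proteins and CREB-binding protein in BMP signalling, as shown in mouse. ZCCHC18, also listed as PNMA7B and SIZN2, is its closest relative.

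A CCHC zinc knuckle, a short loop of 3 cysteines and a histidine that holds a zinc ion, is the feature of retroviral gag proteins that gave the ZCCHC genes their name. The coding sequences of the 9 genes (GENCODE release 29) were searched in frame for this pattern, and 3 of them held it once, all from genes on the X chromosome. They are shown to compare the part of gag that binds nucleic acid, with the codons of the cysteines and the histidine in capitals.
ZCCHC12: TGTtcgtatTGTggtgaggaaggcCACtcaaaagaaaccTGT
ZCCHC18: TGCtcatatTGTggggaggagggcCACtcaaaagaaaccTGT
PNMA3: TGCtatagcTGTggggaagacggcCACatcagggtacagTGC
The stretch begins at base 1039 of 1206 coding bases in ZCCHC12, base 1045 of 1209 in ZCCHC18 and base 1240 of 1389 in PNMA3. PNMA1, PNMA2, PNMA5, PNMA8A, PNMA8B and MOAP1 held no such pattern. Over the whole coding sequence, ZCCHC12 and ZCCHC18 were identical at 88.4% of the alignment, gaps included (1071 of 1212 positions), with 65 bases as the longest identical run. The next closest pair, PNMA1 and MOAP1, was identical at 64.7% on the same basis. ZCCHC12 and PNMA3 were identical at 38.2% on the same basis (603 of 1577 positions), with 1018 positions where both had a base. On that basis ZCCHC12 was identical at 44.4% with PNMA8A, 43.5% with PNMA1, 43.4% with PNMA2 and 43.3% with MOAP1. It was identical at 37.3% with PNMA5 and 34.9% with PNMA8B. In 8 of the 9 genes the coding sequence lies in 1 exon, and PNMA8A has 2 coding exons.

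The promoters of ZCCHC12 and ZCCHC18 also resemble each other, and are shown because these genes had the highest fold changes of the 7 that could be fitted. Each window runs from 250 bases before to 50 bases after the transcription start given by RefSeq (GRCh38.p14), on the plus strand of the X chromosome. GENCODE release 29 starts both genes earlier, ZCCHC12 at 118823790 and ZCCHC18 at 104112131. The whole ZCCHC18 window thus lies inside the gene as GENCODE places it, and positions below are relative to the RefSeq starts. Capitals mark runs of at least 10 bases that the windows share in the same order.
ZCCHC12, chrX:118823574-118823873: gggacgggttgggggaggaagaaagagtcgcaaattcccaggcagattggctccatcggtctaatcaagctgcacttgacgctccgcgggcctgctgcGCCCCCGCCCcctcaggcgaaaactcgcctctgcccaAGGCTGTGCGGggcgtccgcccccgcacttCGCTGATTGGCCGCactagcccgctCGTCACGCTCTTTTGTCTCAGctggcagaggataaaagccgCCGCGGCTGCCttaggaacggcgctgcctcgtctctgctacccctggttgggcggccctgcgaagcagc
ZCCHC18, chrX:104112273-104112572: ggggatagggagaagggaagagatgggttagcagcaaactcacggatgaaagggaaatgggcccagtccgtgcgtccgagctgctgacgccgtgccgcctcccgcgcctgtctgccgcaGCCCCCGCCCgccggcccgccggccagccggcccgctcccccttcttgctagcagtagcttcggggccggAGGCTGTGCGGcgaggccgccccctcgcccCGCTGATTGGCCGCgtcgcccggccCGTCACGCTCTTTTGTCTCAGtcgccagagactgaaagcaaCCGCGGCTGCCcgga
The 5 shared runs cover 67 of the 300 bases. The longest, CGTCACGCTCTTTTGTCTCAG, begins 60 bases before the start of ZCCHC12 and 6 bases before that of ZCCHC18, and among 35116 RefSeq promoter windows it was found on either strand in these 2 only. The run CGCTGATTGGCCGC, found in 11 windows (0.0313%), holds a CCAAT box read on the minus strand. The shorter runs were more common, with GCCCCCGCCC in 1030 windows (2.93%), CCGCGGCTGCC in 94 (0.268%) and AGGCTGTGCGG in 29 (0.0826%). G and C made up 65.7% of the ZCCHC12 window and 70.7% of the ZCCHC18 window. How much unrelated windows of this kind share was not tested. CCAAT, searched on both strands, occurred in 34.6% of all windows. The cAMP response element TGACGTCA was absent from both promoters but present once in those of PNMA3 and MOAP1, against 1.85% of all windows. The heat shock element GAANNTTCNNGAA, read on both strands, was in none of the 9 windows listed for 7 of the family genes and in 0.49% of all windows.

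ZCCHC12 (ENSG00000174460.4) lies on the X chromosome from 118823790 to 118826968 on the plus strand of GRCh38, has 4 exons in 1 annotated transcript and overlaps no other gene. Its level was 91.3, 99.0 and 97.5 CPM (reads scaled to library size, with TMM factors) in editor libraries 1, 2 and 3, against 45.6, 41.0 and 44.0 CPM in GFP libraries 1, 2 and 3. The editor libraries lay together at a little over double the GFP level, and the groups did not overlap. Editor library 1, the nearest of its group to GFP libraries over all genes, lay with the other editor libraries here. Mean levels were 95.9 ± 4.08 CPM with the editor and 43.5 ± 2.34 CPM with GFP (SD over 3 libraries in each group, as throughout). The log2 fold change was 1.14 (SE 0.10), which placed ZCCHC12 at rank 136 from the top among 20511 genes. Counts from bulk RNA do not tell more RNA per cell from more cells that express a gene. In the authors' deposited table, ZCCHC12 has a log2 fold change of 1.15.

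**Figure D1:**
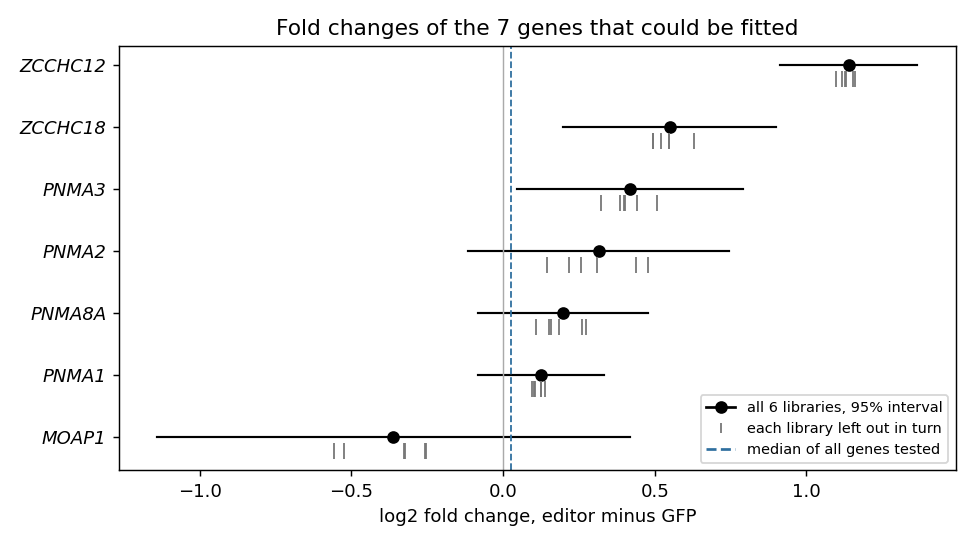
Log2 fold change, editor minus GFP, for the 7 genes that could be fitted, with points and 95% intervals from all 6 libraries, ticks for fits that leave out each library in turn, and a dashed line at the median of all genes tested (0.02). ZCCHC12 stands at 1.14, the ticks of ZCCHC18 run from 0.49 to 0.63, and MOAP1 has the widest interval. ZCCHC12 was chosen for its rise, so the distance of its interval from 0 is a description and no test.

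Of the 6 other genes that could be fitted, 0 passed an adjusted p of 0.05 by edgeR's quasi-likelihood test over all genes tested. Over all genes 5 passed (0.0244%), all of them higher in the editor libraries. At an unadjusted p under 0.05 there were 2 of the 6, ZCCHC18 and PNMA3, both higher, beside 8.68% of all genes (6.1% higher and 2.57% lower). DESeq2 also called 0 of the 6, and 0.385% of all genes. Of the 6, 5 had a log2 fold change above 0, with a median of 0.26, beside 54.3% above 0 and a median of 0.02 over all genes. In 3 of the 6 (ZCCHC18, PNMA1 and PNMA3) every editor library lay above every GFP library, which was so for 8.63% of all genes, and in 0 of the 6 every editor library lay below, against 6.12% of all genes.

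ZCCHC18 (ENSG00000166707.12) lies on the X chromosome from 104112131 to 104115846, inside an intron of SLC25A53, a mitochondrial carrier gene on the opposite strand. It had 2.33, 2.92 and 2.92 CPM in editor libraries 1, 2 and 3, against 1.90, 1.86 and 1.83 CPM in GFP libraries 1, 2 and 3. The GFP libraries were nearly alike, editor library 1 lay a little above them, and editor libraries 2 and 3 were higher still. Its log2 fold change was 0.55 (SE 0.15, 95% interval 0.20 to 0.90), which did not pass (adjusted p = 0.471, edgeR). Without editor library 1 it was 0.63 (adjusted p = 0.0562). SLC25A53 stood at 0.17 (SE 0.12, adjusted p = 0.716).

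Because the coding sequences of ZCCHC12 and ZCCHC18 share identical runs of up to 65 bases, some reads may fit either gene. The sources used here do not say how such reads were counted. Read for read, there were 2.55, 2.95 and 2.99 ZCCHC18 reads per 100 ZCCHC12 reads in editor libraries 1, 2 and 3, and 4.16, 4.54 and 4.15 in GFP libraries 1, 2 and 3. The ratio was therefore lower in every editor library, with ZCCHC12, chosen for its rise, as its denominator. The part of shared reads in the value of ZCCHC18 was not tested.

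PNMA3 (ENSG00000183837.10), the other X-linked gene with a zinc knuckle, lies from 153056409 to 153060467. It had 1.93, 2.59 and 2.35 CPM in editor libraries 1, 2 and 3, against 1.80, 1.64 and 1.71 CPM in GFP libraries 1, 2 and 3. The groups did not overlap, but editor library 1 lay close to the highest GFP library. A log2 fold change of 0.42 (SE 0.16, 95% interval 0.05 to 0.79) did not pass, with an adjusted p of 0.543 by edgeR. It ranged from 0.32 without editor library 2 to 0.51 without editor library 1, where the adjusted p was 0.0879.

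PNMA1 (ENSG00000176903.5, chromosome 14, 73711783 to 73714372), the antigen Ma1, is a gene of 1 exon. Its CPM were 34.7, 36.9 and 35.7 in editor libraries 1, 2 and 3, against 32.7, 33.6 and 32.2 in GFP libraries 1, 2 and 3. The groups did not overlap, yet the step between them was small. Its log2 fold change of 0.12 (SE 0.09) had a 95% interval of -0.08 to 0.33 and did not pass (adjusted p = 0.723, edgeR).

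PNMA2 (ENSG00000240694.9), the antigen Ma2, and PNMA8A (ENSG00000182013.18), also listed as PNMAL1, varied more between libraries of 1 group. PNMA2 had 19.3, 27.5 and 26.2 CPM in editor libraries 1, 2 and 3, against 15.1, 23.8 and 19.9 CPM in GFP libraries 1, 2 and 3. In each group library 1 was the lowest, and editor library 1 lay below GFP libraries 2 and 3. Its log2 fold change of 0.32 (SE 0.19, 95% interval -0.11 to 0.75, adjusted p = 0.658 by edgeR) was 0.14 without GFP library 1 and 0.48 without GFP library 2. PNMA2 lies on chromosome 8 from 26504686 to 26514092, and its exons overlap exons of BNIP3L and DPYSL2 on the opposite strand, so its counts are uncertain without the strand setting. BNIP3L, a mitophagy receptor gene, stood at -0.41 (SE 0.12, adjusted p = 0.504) and DPYSL2 at -0.10 (SE 0.11, adjusted p = 0.838).

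PNMA8A, on chromosome 19 from 46466491 to 46471563, had 59.6, 71.3 and 71.7 CPM in editor libraries 1, 2 and 3, against 52.6, 65.2 and 59.0 CPM in GFP libraries 1, 2 and 3. Here too editor library 1 lay among the GFP libraries and the groups overlapped. At a log2 fold change of 0.20 (SE 0.12, 95% interval -0.08 to 0.48) it did not pass (adjusted p = 0.669, edgeR), and the value was 0.11 without GFP library 1. The authors' deposited table lists 6 of the 9 genes, with log2 fold changes of 0.56 for ZCCHC18, 0.43 for PNMA3, 0.34 for PNMA2, 0.21 for PNMA8A and 0.14 for PNMA1.

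MOAP1 (ENSG00000165943.5), also listed as PNMA4, binds the tumour suppressor RASSF1 and helps to activate BAX at mitochondria. It was counted at 8, 9 and 16 reads in editor libraries 1, 2 and 3, against 16, 14 and 10 reads in GFP libraries 1, 2 and 3. Scaled to library size these were 0.075, 0.069 and 0.10 CPM in editor libraries 1, 2 and 3, against 0.12, 0.11 and 0.083 CPM in GFP libraries 1, 2 and 3. The groups overlapped, with editor library 3 above GFP library 3 and the other editor libraries below all GFP libraries. Its log2 fold change of -0.36 (SE 0.34, adjusted p = 0.794 by edgeR) had a 95% interval of -1.14 to 0.42, too wide to show a difference at this depth. It ranged from -0.25 without editor library 2 to -0.56 without editor library 3. MOAP1 lies on chromosome 14 from 93182196 to 93184928, in a stretch where few reads were counted. Of 23 other protein-coding genes starting within 1000 kb, 13 averaged under 10 reads per library (56.5%), against 27.8% of all protein-coding genes and 5.88% to 22.8% around the 8 other family genes. DDX24, an RNA helicase gene 866 kb away, averaged 137.0 reads and UBR7, a ubiquitin ligase gene, 34.0, whereas GOLGA5 on the far side averaged 11680 and LGMN 6174 (named after their values were seen). The counts of MOAP1 thus do not show whether the gene was expressed or changed.

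**Figure D2:**
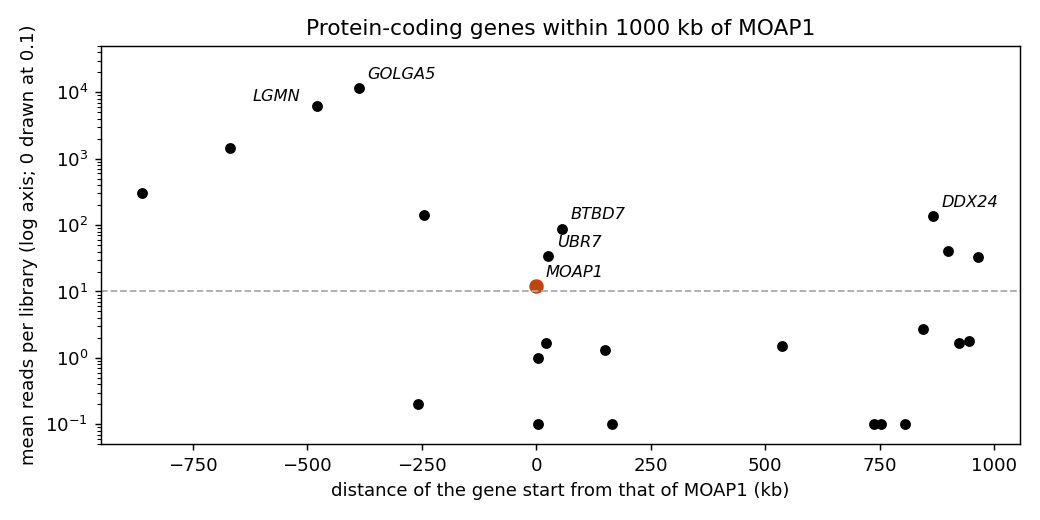
Mean reads per library (log axis, with 0 drawn at 0.1) of protein-coding genes by the distance of their start from that of MOAP1 in kb, with a dashed line at 10 reads. GOLGA5 and LGMN, on the left, lie at 11680 and 6174 reads, while MOAP1 and the genes to its right lie at 137.0 reads or fewer.

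PNMA5 and PNMA8B were close to absent and were not tested. PNMA5 (ENSG00000198883.12, X chromosome), known from the association cortex of primates, had 7, 3 and 2 reads in editor libraries 1, 2 and 3, against 2, 1 and 1 reads in GFP libraries 1, 2 and 3. PNMA8B (ENSG00000204851.7, chromosome 19) had 1, 4 and 2 reads in editor libraries 1, 2 and 3, against 1 read in each GFP library. No fold change can be read from such counts.

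Levels per length, on exon lengths that may differ from those behind the counts, put the family in a steep order. RPKM, CPM per kilobase of annotated exon, averaged 43.0 ± 1.83 for ZCCHC12 in the editor libraries, against 19.5 ± 1.05 in the GFP libraries. PNMA8A followed at 18.3 ± 1.85 RPKM in the editor and 15.9 ± 1.70 RPKM in the GFP libraries, and PNMA1 at 13.8 ± 0.43 RPKM in the editor and 12.7 ± 0.27 RPKM in the GFP libraries. PNMA2 stood at 4.37 ± 0.80 RPKM in the editor and 3.51 ± 0.78 RPKM in the GFP libraries. ZCCHC18 reached 0.80 ± 0.10 RPKM in the editor and 0.55 ± 0.01 RPKM in the GFP libraries, and PNMA3 0.61 ± 0.09 RPKM in the editor and 0.46 ± 0.02 RPKM in the GFP libraries. MOAP1, PNMA5 and PNMA8B were below 0.05 RPKM in every library.

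The order was the same in both groups. In the editor libraries the ranges of ZCCHC18 and PNMA3 overlapped slightly across libraries, although ZCCHC18 was above PNMA3 within each library, while ZCCHC12 stood far above PNMA8A, with 40.9 RPKM in its lowest editor library against 19.4 RPKM in the highest of PNMA8A. In the GFP libraries ZCCHC12 and PNMA8A nearly met, at 18.4 RPKM for the lowest of ZCCHC12 and 17.6 RPKM for the highest of PNMA8A. PNMA5 and PNMA8B rest on 1 to 7 reads and have no readable order. The place of MOAP1 rests on 8 to 16 reads, which do not show whether it was expressed. ZCCHC12 took 43.6%, 41.2% and 41.2% of the reads of the family in editor libraries 1, 2 and 3, against 30.5%, 24.5% and 27.7% in GFP libraries 1, 2 and 3.

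**Figure D3:**
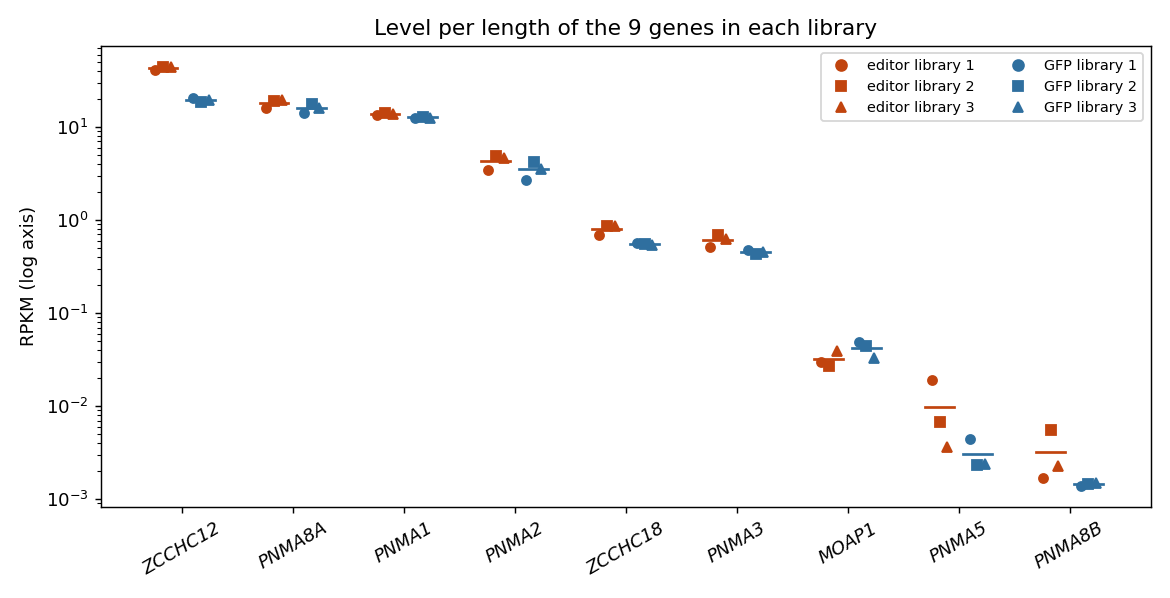
RPKM (log axis) of the 9 family genes in each library, editor libraries left and GFP libraries right for each gene, with a bar at the mean of the 3 libraries. ZCCHC12, which was chosen for its rise, has the groups farthest apart among the 6 well counted genes. It stands at 43.0 RPKM in the editor and 19.5 RPKM in the GFP libraries, while PNMA1, PNMA8A and PNMA2 lie close in both.

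The genes around ZCCHC12 on the X chromosome were compared as well. Of 21 genes tested that start within 1000 kb of ZCCHC12, 0 passed (edgeR, adjusted p of 0.05). At the share of all genes that passed, 0.0244%, this count cannot show that these genes were unchanged. Their median log2 fold change was 0.07, with 15 of the 21 above 0, beside a median of 0.02 and 54.3% above 0 over all genes. The 731 tested genes placed on the X chromosome by GENCODE release 29, without the 9 chosen genes but with PNMA6A, had a median of 0.01. The nearest tested gene on the left, IL13RA1, an interleukin receptor subunit gene, stood at 0.07 (SE 0.12, adjusted p = 0.890). LINC01285, a non-coding gene 12586 bases to the right, stood at -0.78 (SE 0.19, adjusted p = 0.451) on 0.45 CPM in the editor and 0.77 CPM in the GFP libraries. Among the neighbours with a mean of at least 1 CPM in both groups, SLC25A5-AS1, an antisense RNA gene, had the highest log2 fold change, 0.38 (SE 0.28). Next to PNMA3 lies PNMA6A, at 0.33 (SE 0.26, adjusted p = 0.744), and next to PNMA8A lies CCDC8, at 0.17 (SE 0.23, adjusted p = 0.868).

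**Figure D4:**
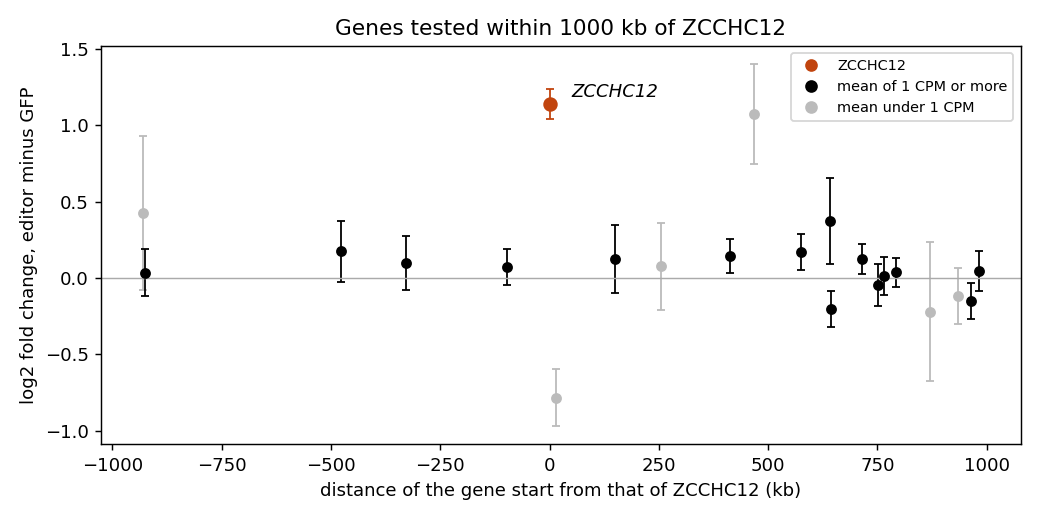
Log2 fold change, editor minus GFP, with its standard error, for the genes tested within 1000 kb of ZCCHC12, by distance of the gene start in kb. ZCCHC12 stands at 1.14, and the point nearest to it in height, at 1.07, is a non-coding gene counted at under 1 CPM.

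Of 5 further PNMA genes, 2 were tested and 0 passed (edgeR), beside 0.0244% of all genes. In both, editor library 1 was lower than editor libraries 2 and 3. CCDC8, which shares the gag origin and is known from growth disorders, had 24.7 ± 8.43 CPM in the editor and 21.9 ± 1.76 CPM in the GFP libraries. PNMA6A, one of several near-identical copies whose reads may be split between them, had 2.23 ± 0.72 CPM in the editor and 1.78 ± 0.34 CPM in the GFP libraries. On the log2 scale of CPM + 0.1, CCDC8 was 0.55 below the GFP mean in editor library 1 and 0.42 and 0.45 above it in editor libraries 2 and 3. PNMA6A was 0.30 below and 0.57 and 0.55 above it in the same order. PNMA6E, PNMA6F and PNMA8C were not tested.

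Other genes of gag origin include the RTL family, which descends from another retrotransposon, and ARC, a neuronal capsid protein induced by activity. Of 14 listed, 10 were tested and 0 passed in either direction (edgeR), beside 0.0244% of all genes. Their median log2 fold change was 0.05, with 6 of the 10 above 0, beside 54.3% of all genes. ARC stood at 0.45 (SE 0.15, adjusted p = 0.512), with 2.65 ± 0.04 CPM in the editor and 1.95 ± 0.24 CPM in the GFP libraries, and was the only 1 of the 10 whose groups did not overlap, beside 8.63% of all genes higher and 6.12% lower without overlap. LDOC1, a small gag-derived regulator, stood at -0.28 (SE 0.17) and RTL9 at 0.43 (SE 0.28). The most abundant, RTL6 and RTL8C, stood at 0.00 (SE 0.16) and -0.27 (SE 0.18). PEG10, a placental gene with both gag and pol parts, had 0.76 ± 0.11 CPM in the editor and 0.59 ± 0.21 CPM in the GFP libraries. ZCCHC12 had a higher log2 fold change than each of these genes, but it was chosen for its rise, so this order is no test.

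**Figure D5:**
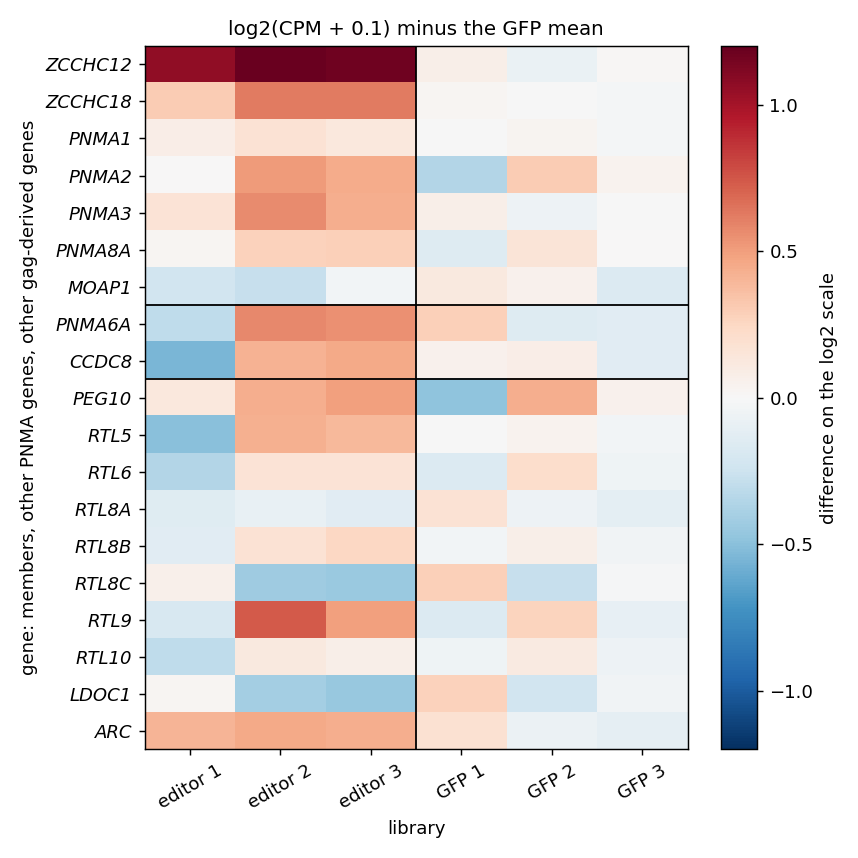
Difference of log2(CPM + 0.1) from the mean of the GFP libraries, by library, for the 7 fitted family genes (top block), 2 further PNMA genes (middle) and 10 other gag-derived genes (bottom), editor libraries left. ZCCHC12 is between 1.07 and 1.18 in all 3 editor libraries, whereas CCDC8 and RTL5 are below 0 in editor library 1 and above 0 in editor libraries 2 and 3.

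Zinc knuckle genes with no gag origin were also compared. Of 15 listed, 14 were tested and 0 passed (edgeR), beside 0.0244% of all genes. The median log2 fold change was -0.03, with 10 below 0 and 4 above 0, where 54.3% of all genes were above 0. At an unadjusted p under 0.05 there was 1, ZCCHC7, beside 2.57% of all genes lower. In 2 of the 14, ZCCHC7 and ZCCHC3, every editor library lay below every GFP library, beside 6.12% of all genes. ZCCHC7, a nuclear RNA surveillance factor, stood at -0.27 (SE 0.11, adjusted p = 0.567 by edgeR), ZCCHC4 at -0.16 (SE 0.11) and ZCCHC3 at -0.12 (SE 0.09). CNBP, the most abundant, averaged 635.4 CPM in the editor and 656.5 CPM in the GFP libraries, at -0.05 (SE 0.11). LIN28B, a blocker of let-7 maturation, stood at 0.14 (SE 0.25).

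ZCCHC12 acts with SMAD proteins downstream of BMP receptors, and 19 genes of that pathway were tested. None of the 19 passed (edgeR; 0 also at an unadjusted p under 0.05). Over all genes 0.0244% passed and 8.68% had an unadjusted p under 0.05. Of the 19, 14 were above 0, beside 54.3% of all genes, with a median log2 fold change of 0.06. The ligand gene BMP2 stood at 0.22 (SE 0.11), the inhibitor SMAD6 at 0.29 (SE 0.14) and the target ID2 at 0.29 (SE 0.15), where the lowest adjusted p was 0.599. In these 3 of 19 genes the editor libraries lay above the GFP libraries without overlap (8.63% of all genes), and in 1, the ligand gene BMP7 at -0.12 (SE 0.10), they lay below (6.12% of all genes). The signal carrier SMAD5 stood at -0.06 (SE 0.21) and the co-activator EP300 at 0.06 (SE 0.19).

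Around MOAP1, 19 genes of the death receptor and BAX pathway were tested, and 0 passed (edgeR; 0 at an unadjusted p under 0.05). Over all genes 0.0244% passed and 8.68% had an unadjusted p under 0.05. Of the 19, 7 were above 0, beside 54.3% of all genes, with a median log2 fold change of -0.01. In 1 of the 19 every editor library lay below every GFP library (6.12% of all genes), and in 0 above (8.63%). The Hippo kinase gene STK3 stood at -0.29 (SE 0.14), the initiator caspase gene CASP8 at 0.23 (SE 0.11) and the receptor gene TNFRSF10A at 0.73 (SE 0.39) on 6 to 23 reads per library. CYCS, cytochrome c, stood at 0.10 (SE 0.19) and MCL1, an anti-apoptotic BCL2 relative, at 0.03 (SE 0.12).

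Paraneoplastic antigens outside the PNMA family include the neuronal RNA-binding ELAVL and NOVA proteins. They gave 0 calls among 9 tested of 12 (edgeR; 0 at an unadjusted p under 0.05), with a median log2 fold change of -0.02. Over all genes 0.0244% passed and 8.68% had an unadjusted p under 0.05. ELAVL4 stood at 0.74 (SE 0.33, adjusted p = 0.579) on 0.61 CPM in the editor and 0.37 CPM in the GFP libraries. CDR2, the cerebellar antigen Yo, stood at -0.21 (SE 0.22), AMPH at -0.11 (SE 0.11) and DPYSL5 at 0.00 (SE 0.09).

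Neuronal markers were checked because several PNMA genes are found mostly in brain. Of 12, 11 were tested and 0 passed (edgeR), beside 0.0244% of all genes, with a median log2 fold change of 0.09. At an unadjusted p under 0.05 there were 4, all higher in the editor libraries (6.1% of all genes were higher and 2.57% lower). The 12 markers had a summed level of 440.6 to 458.9 CPM in the editor and 450.8 to 501.9 CPM in the GFP libraries. Most of it came from the neurofilament genes NEFM and NEFL, at -0.14 (SE 0.12) and -0.05 (SE 0.12). The weakly counted STMN2, GAP43 and NEFH stood at 0.92 (SE 0.31), 0.46 (SE 0.16) and 0.98 (SE 0.37), where the lowest adjusted p was 0.518. The synaptic vesicle gene SYP, the other of the 4, stood at 0.38 (SE 0.15). MAP2 and SNAP25 stood at -0.33 (SE 0.23) and -0.29 (SE 0.16). In 3 of the 11 (SYT1, GAP43 and NEFH) every editor library lay above every GFP library, beside 8.63% of all genes. In 1, SNAP25, every editor library lay below, beside 6.12% of all genes. The part of the neuronal markers in the results above was not tested. Among 9 markers of embryonic kidney and epithelium, all were tested and 0 passed (edgeR), beside 0.0244% of all genes. At an unadjusted p under 0.05 there were 4, of which PAX2, CDH1 and EPCAM were higher and VIM lower, beside 8.68% of all genes. The list had a summed level of 1270 to 1284 CPM in the editor and 1464 to 1566 CPM in the GFP libraries. Most of that sum was VIM, with 940.7 CPM in the editor and 1191 CPM in the GFP libraries, while 5 of the 9 markers were above 0. VIM, CDH1 and EPCAM stood at -0.34 (SE 0.10), 0.31 (SE 0.12) and 0.75 (SE 0.22). Of 9 markers of mature kidney, 6 had under 10 reads in every library, UMOD and AQP2 among them, and SLC34A1 had 0 in all 6. LRP2, the proximal tubule receptor megalin, was the exception, with 55.5 CPM in the editor and 45.4 CPM in the GFP libraries, and AQP1 had 0.36 CPM in the editor and 0.32 CPM in the GFP libraries.

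Genes among the most like ZCCHC12 across the 6 libraries were EN2 (Pearson r = 0.9986), HEXIM1 (r = 0.9986), HSPA6 (r = 0.997) and ALDH1A1 (r = 0.991), among 12545 genes whose mean log2 CPM was 1 or more. Since ZCCHC12 parts the 3 editor from the 3 GFP libraries, these values mostly mark genes that part them too, and they are given as a description. EN2, a homeobox gene of the midbrain and hindbrain, had 57.2 ± 1.25 CPM in the editor and 44.6 ± 1.04 CPM in the GFP libraries. HEXIM1, an inhibitor of the elongation kinase P-TEFb, had 29.4 ± 0.41 CPM in the editor and 22.3 ± 0.70 CPM in the GFP libraries. HSPA6, a stress-induced HSP70 gene, had 25.2 ± 4.29 CPM in the editor and 0.19 ± 0.05 CPM in the GFP libraries. ALDH1A1, a retinal dehydrogenase gene, had 7.91 ± 0.35 CPM in the editor and 4.70 ± 0.04 CPM in the GFP libraries. Within the family ZCCHC18 came nearest (r = 0.945, rank 80), followed by PNMA1 (r = 0.894, rank 230) and PNMA3 (r = 0.882, rank 254).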

How the data were processed

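A table deposited by the authors holds raw counts of reads for 62700 Ensembl genes in 6 libraries, and another is a table of their own comparison with log2 fold changes and adjusted p-values, of which the first 15273 rows were used. Per the submitters' processing notes, the tools were HISAT2, featureCounts and limma. The genome build, the annotation, the strand setting and how multi-matching reads were handled: not given in the sources used here. This bears on ZCCHC12 and ZCCHC18 and on overlapping genes. Columns were matched to libraries by the sample descriptions.

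Counts were tested by the quasi-likelihood test of edgeR 4.0.16 (R 4.3.3) after TMM scaling and filterByExpr, as editor over GFP, and p-values were adjusted by Benjamini-Hochberg over 20511 genes. SE is the log2 fold change over the square root of F. RPKM used exon lengths, and coordinates the genes, of GENCODE release 29 (GRCh38), which may differ from the annotation behind the counts. Tested genes absent from that release were left out of the neighbours, the window around ZCCHC12 and the X chromosome values. Coding sequences were aligned with Biopython 1.88. The sample titles call the libraries biological replicates, but do not say whether these were separate cultures, so p-values reflect no more than how these libraries vary, and that variation may be technical. The edgeR, DESeq2 1.42.0 and limma-voom (limma 3.58.1) fits were tested on simulated data.

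The members and lists were chosen with earlier results of these data known. Named genes were all 9 members, per list the 3 with the smallest p and the 2 most abundant, nearest and overlapping tested genes, and the 5 most like ZCCHC12, of which 1 is not reported here. PEG10, RTL5, SLC25A5-AS1, BMP7, SYP, SYT1, MAP2, SNAP25, PAX2, DDX24, UBR7, GOLGA5 and LGMN were added after their values were seen.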

Additional observations from a re-analysis of the deposited data

How the results depend on the processing

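ZCCHC12 kept its direction in all 14 alternatives, with a log2 fold change of 1.09 to 1.19 (1.10 to 1.16 over the libraries left out), and 0 of the other members passed in any of them. ZCCHC18, PNMA1, PNMA2, PNMA3, PNMA8A and MOAP1 kept their sign wherever they were fitted, and MOAP1 was not fitted when 50 reads in 3 libraries were required. Of all genes, 5 were called higher and 0 lower. Without a filter these counts were 178 higher and 129 lower, DESeq2 gave 47 higher and 32 lower, limma-voom 3 higher, and the replicate block 1 higher. The cause was not tested. Leaving out each library in turn gave 1 to 159 higher and 0 to 54 lower, the most without editor library 1. The replicate block gave ZCCHC12 a log2 fold change of 1.14, and the deviations of libraries 1, 2 and 3 correlated across the groups at r of -0.0485, 0.173 and -0.237, so the numbers are not shown to pair them. RLE scaling, library totals, 50 reads in 3 libraries and the sum of editor libraries 2 and 3, the last chosen after seeing the data, moved no count by more than 1.5 times. Below about 10 reads per library (PNMA5, PNMA8B), depth allows no comparison. The counts of MOAP1, at 8 to 16 reads, do not show whether it was expressed or changed.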
